A study of Mus musculus with 30 samples.

Results

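Muscle of Kif3aΔTub mice that received sActRIIB-Fc was compared with muscle of Kif3aΔTub mice that received PBS. The members were chosen by their labels alone: 8 of the 30 arrays of the series were muscle arrays of mutants, 4 from sActRIIB-Fc and 4 from PBS animals, each from another mouse. Kif3aΔTub mice, labelled Kif3aKSPCre for genotype, delete the kinesin-2 subunit gene Kif3a through Cre driven by the kidney-specific cadherin promoter, which is active in tubule epithelium and is not a muscle promoter. Both groups carry this deletion, so their comparison asks what the trap changed in animals with the kidney mutation. Mice were 6 weeks old, and the labels describe weekly injection into the peritoneum at 10 mg/kg with 2 injections; the protocol text is the same for every sample, and the schedule of the PBS animals is not spelled out. Which muscle was taken, and the age at which kidney disease began, are not given in the sources used here. For comparison, the series holds 4 wild-type muscles with sActRIIB-Fc and 3 with PBS, and kidneys of the same animals.

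sActRIIB-Fc is a soluble form of the activin type IIB receptor fused to an antibody tail, called the trap here. It binds activins, myostatin and related ligands outside the cell, so that less ligand reaches the receptors ACVR2A and ACVR2B. In muscle these receptors signal through type I receptors to SMAD2 and SMAD3, a pathway known to restrain muscle growth, while the ubiquitin ligases Fbxo32 (atrogin-1) and Trim63 (MuRF1), under FoxO factors, are textbook markers of wasting. Fibroblasts and tendon cells in the same tissue make the collagen matrix and also answer to this family of ligands.

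Signals below are the authors' normalized log2 values, 1 probe set per gene, changes are log2 differences ± standard error from limma, and adjusted p is Benjamini-Hochberg over 17782 genes. The muscle identity held in the 8 arrays: the skeletal actin gene Acta1 lay between 14.2 and 14.4 and fast myosin Myh4 between 14.1 and 14.3, while the proximal tubule genes Lrp2 and Slc34a1 reached at most 4.16 and 5.13. Kif3a was at 7.41, 7.33, 7.18 and 7.37 in treated and at 6.71, 7.42, 7.38 and 7.19 in untreated mutants, with no call (0.15 ± 0.17, adjusted p = 0.684); both groups carry the deletion, so this checks no label. The 18S ribosomal RNA control signal was 13.4, 13.3, 13.2 and 13.0 on the treated and 12.9, 13.1, 12.9 and 12.5 on the untreated mutant arrays. It thus tended higher with treatment, with 1 pair of values out of order. The actin 3 prime minus 5 prime control difference was 0.145, 0.204, 0.0932 and 0.18 against -0.0611, 0.11, 0.039 and 0.141, overlapping between the groups. Untreated replicates 1 and 2 were the least alike within a group, with a correlation across genes of 0.976.

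In mutant muscle 1125 genes differed between trap and PBS, which is 6.33% of the genes tested. Of these, 743 were higher (4.18%) and 382 lower (2.15%) with the trap, and 190 changed at least 2-fold, 142 upward and 48 downward. The typical called gene moved by 0.66 (median size), and the median change of all genes was 0.03. In 956 of the called genes the 4 treated and 4 untreated arrays did not overlap, against 1953 genes (11%) without overlap among all genes tested, 1208 of them higher (6.79%) and 745 lower (4.19%). The number of calls depended on what was held constant. With the 18S signal as a covariate 73 genes were called, 70 of them among the 1125, and with the actin difference 236. All 1125 kept their direction in both fits, at a median size of 0.57 and 0.59 against 0.66; the standard error rose from 0.15 to 0.21 with the 18S signal. A fit of the 8 arrays alone called 322. The part of RNA quality in these counts was not tested.

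**Figure D1:**
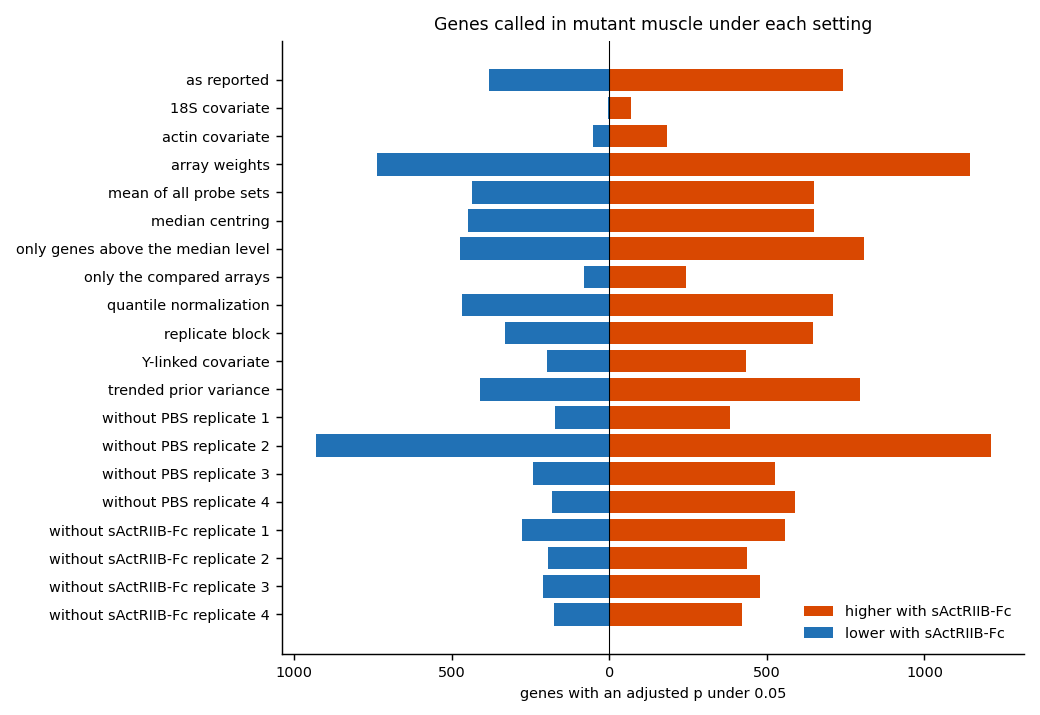
Number of genes with an adjusted p under 0.05 in mutant muscle, sActRIIB-Fc against PBS, for each setting on the vertical axis; bars to the right count genes higher and bars to the left genes lower with the trap. The count was 1125 as reported, 73 with the 18S covariate and 2140 without PBS replicate 2.

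The deepest fall was in Mss51, which encodes a muscle-enriched mitochondrial protein. Its signal was 5.78, 6.41, 7.68 and 6.43 in treated mutants and 9.57, 7.74, 10.77 and 10.19 in untreated mutants. Every treated array lay below every untreated one, although treated replicate 3 and untreated replicate 2 came within a few hundredths of each other. The fall was 2.99 ± 0.56, or 7.95-fold (adjusted p = 0.00651), and with the 18S covariate it was 1.65 and no longer called (adjusted p = 0.391). Wild-type muscle showed the fall as well, with 5.35, 5.91, 6.18 and 6.48 under the trap against 11.34, 11.15 and 9.54 under PBS (4.70 lower, adjusted p = 0.00477). The difference between the genotypes was 1.71 (adjusted p = 0.349), and no change was seen in mutant kidney (0.17, adjusted p = 0.955).

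The promoter of Mss51 is shown because this gene had the deepest fall under that rule. Its upstream sequence holds a palindromic SMAD motif, GTCTAGAC, written in capitals. The stretch is the 250 bases before the RefSeq start, on the minus strand of GRCm38.p6, chr14:20496902-20497151.
Mss51: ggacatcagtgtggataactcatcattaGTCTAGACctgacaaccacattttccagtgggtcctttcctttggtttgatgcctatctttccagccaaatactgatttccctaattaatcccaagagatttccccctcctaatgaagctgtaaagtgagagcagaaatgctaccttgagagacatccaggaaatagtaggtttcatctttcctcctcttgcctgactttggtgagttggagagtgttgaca
Searched on both strands in windows of 300 bases, this motif was in 41 of the 14176 measured genes that had a promoter entry (0.289%). It was in 2 of 311 genes called lower and in 1 of 586 called higher. A match of letters shows neither a site nor binding.

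A further 4 genes were called in both genotypes together with Mss51, and all of them rose; Dmp1, Ak4 and Sap30 are named after their values were seen. Vsig4, a complement receptor of resident macrophages, was at 7.04, 7.97, 7.33 and 7.37 in treated and at 4.84, 5.34, 4.76 and 5.20 in untreated mutants. The groups were far apart, with a rise of 2.39 ± 0.18 (5.24-fold, adjusted p = 7.31e-06), and it was 2.70 in wild-type muscle and 2.60 in mutant kidney. Ak4, a mitochondrial adenylate kinase, was at 7.81, 7.81, 7.40 and 7.88 against 5.12, 6.21, 5.59 and 6.23, again without overlap (1.94 ± 0.22, adjusted p = 0.000346; 1.06 as the mean of its probe sets; wild type 1.68). Dmp1, a matrix phosphoprotein best known from bone, rose from very low signals of 3.09 to 3.25 to between 4.33 and 5.69 (1.88 ± 0.28, adjusted p = 0.00182; wild type 2.50). Sap30, a subunit of a histone deacetylase complex, rose by 0.61 ± 0.12 (adjusted p = 0.009; wild type 0.83). None of these 5 genes had a called difference of its trap effect between genotypes: the terms were -0.31 for Vsig4, 0.25 for Ak4, -0.62 for Dmp1 and -0.22 for Sap30. The lowest adjusted p among the 5 was the 0.349 of Mss51.

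**Figure D2:**
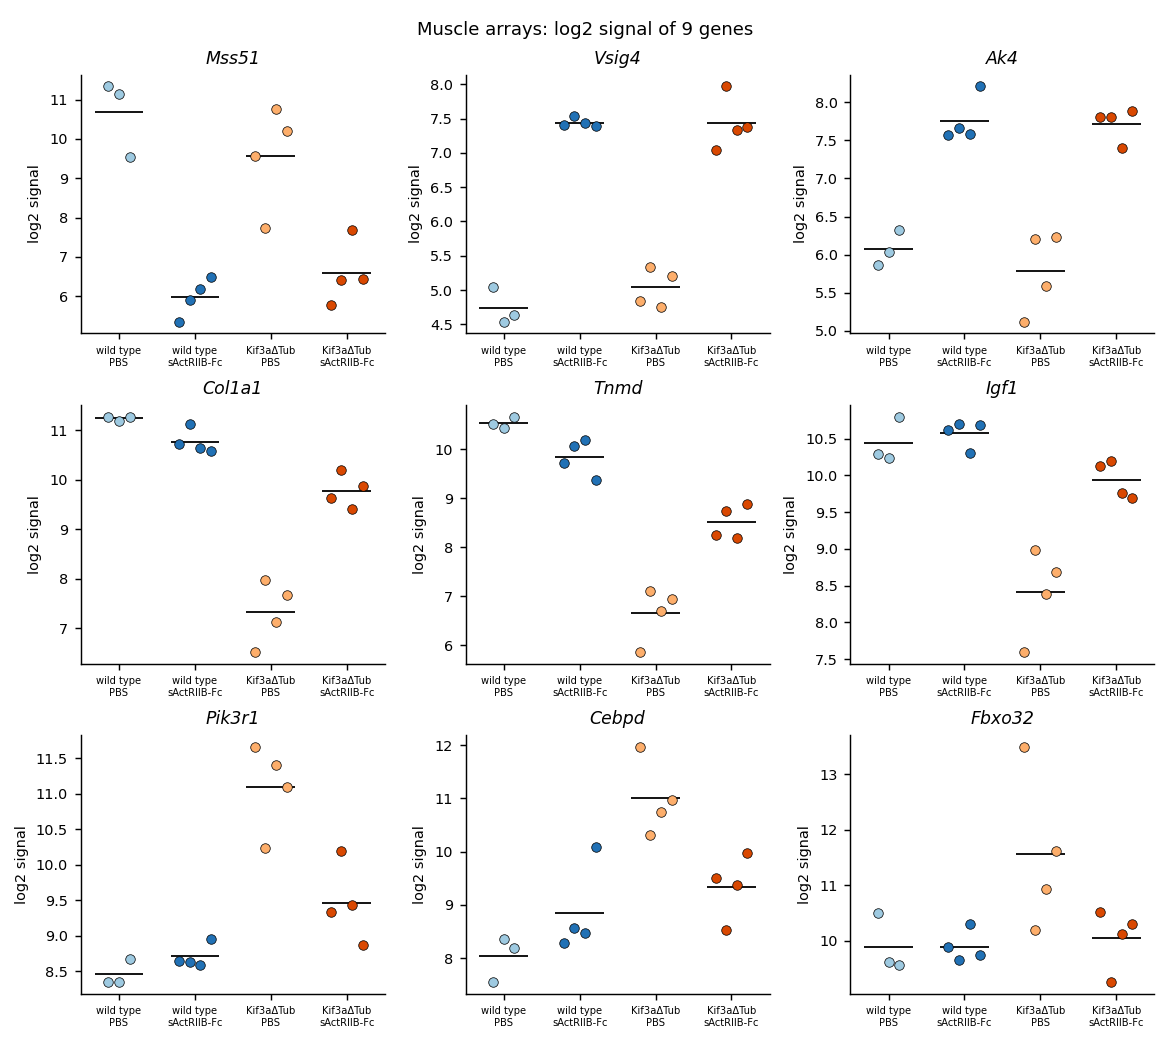
Log2 signal (vertical axis) of 9 genes on each of the 15 muscle arrays, by genotype and treatment; points are arrays and lines are group means. Mss51 is low and Vsig4 and Ak4 are high in both trap groups, whereas Col1a1, Tnmd and Igf1 are lowest in untreated mutants, and Fbxo32 has 1 untreated mutant array at 13.50.

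Collagen and matrix genes had the highest number of rises among the gene lists examined. Of 29 measured members of a list of fibrillar collagens and matrix genes 15 rose and 0 fell, beside 4.18% of all genes called higher, and the median change was 0.78 beside 0.03 for all genes. The 15 were the fibrillar chains Col1a1, Col1a2, Col3a1, Col5a1 and Col5a2, the microfibril chains Col6a1, Col6a2 and Col6a3, the basement membrane chains Col4a1 and Col4a5, the fibril-associated or related chains Col12a1, Col14a1 and Col15a1, the proteoglycan Lum, and the collagen-binding protein Sparc. In all of them but Col12a1 the treated and untreated arrays did not overlap, as was so in 956 of all 1125 called genes. The rises ran from 0.77 (Col12a1) to 2.45 (Col1a1). Members such as the proteoglycan Dcn (-0.02 ± 0.14), elastin (Eln, 0.22 ± 0.26) and the crosslinking enzyme Lox (-0.65 ± 0.34) were not called.

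Col1a1, the alpha 1 chain of type I collagen, was at 9.63, 10.20, 9.40 and 9.87 in treated mutants and at 6.52, 7.98, 7.13 and 7.67 in untreated mutants. The lowest treated array stood well above the highest untreated array, and the rise was 2.45 ± 0.25, or 5.46-fold (adjusted p = 0.000181). Col3a1, the chain of type III collagen, was at 12.15, 12.72, 12.09 and 12.20 against 8.72, 10.15, 10.22 and 10.90 (2.29 ± 0.31, adjusted p = 0.00103). Untreated replicate 1 was far below its group there. Col1a2, the partner chain of Col1a1, was at 12.10, 12.50, 11.88 and 12.10 against 10.22, 10.80, 10.38 and 10.99 (1.55 ± 0.17, adjusted p = 0.000346), with the groups clearly apart. Col6a3 was at 10.17, 10.40, 9.46 and 9.78 against 7.61, 8.21, 8.32 and 9.45, where untreated replicate 4 nearly met treated replicate 3 (1.56 ± 0.28, adjusted p = 0.00548). Sparc rose by 1.08 ± 0.11 (adjusted p = 0.00027) and Lum by 1.72 ± 0.30 (adjusted p = 0.00461).

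In wild-type muscle limma called 0 of the 29 matrix genes with the trap, beside 0.0619% of all genes. Of the 29, 2 had an unadjusted p under 0.05, beside 2068 of all 17782 genes, and the median change was -0.04. The difference of the trap effect between genotypes was called for 4 of the 29, beside 0.169% of all genes. The 4 included Col1a1 (2.93, adjusted p = 0.00219), Col1a2 (1.89, adjusted p = 0.00372) and Sparc (1.31, adjusted p = 0.00301). The levels place these values: untreated wild-type muscle had Col1a1 at 11.28, 11.19 and 11.28, above both mutant groups. Untreated mutants were lower than untreated wild type in 25 of the 29 (9.04% of all genes were called lower there), and treated mutants still differed from untreated wild type in 13 of 29 (0.973% of all genes called). These comparisons share the untreated or the treated mutant arrays with the trap comparison, so their signs are not independent of it. In mutant kidney 0 of the 29 were called, beside 3.18% of all genes, with a median change of 0.06. Of the 29, 4 had an unadjusted p under 0.05 in limma, beside 2449 of all 17782 genes.

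The matrix count was 12 with either the 18S or the actin covariate and between 14 and 20 with any 1 mutant array left out; without untreated replicate 2, 2 members fell. Fibroblast, pericyte and smooth muscle markers moved with it in part. Of 17 measured markers 6 rose (Thy1, Fap, Dpt, Cd34, Dpp4 and Pi16) and 2 fell (Myh11 and Tagln), beside 4.18% of all genes called higher and 2.15% lower. With either the 18S or the actin covariate 3 rose and 0 fell, so the falls of Myh11 and Tagln were not called there, and with 1 array left out 4 to 6 rose and 1 to 3 fell. The mean signal of the list was 8.62 to 8.71 in treated and 8.09 to 8.53 in untreated mutants. Thy1, a surface glycoprotein of fibroblasts, rose by 1.58 ± 0.21 (adjusted p = 0.00079), Fap, a fibroblast protease, by 1.52 ± 0.19 (adjusted p = 0.000647) and Dpt, a matrix protein of fibroblasts, by 1.35 ± 0.15 (adjusted p = 0.000346). The contractile smooth muscle genes Myh11 (0.78 ± 0.15 lower, adjusted p = 0.00703) and Tagln (0.52 ± 0.14 lower, adjusted p = 0.0402) went the other way. In whole muscle, fewer cells of a type and less RNA per cell cannot be told apart, and the part of fibroblast number in the matrix values was not tested.

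**Figure D3:**
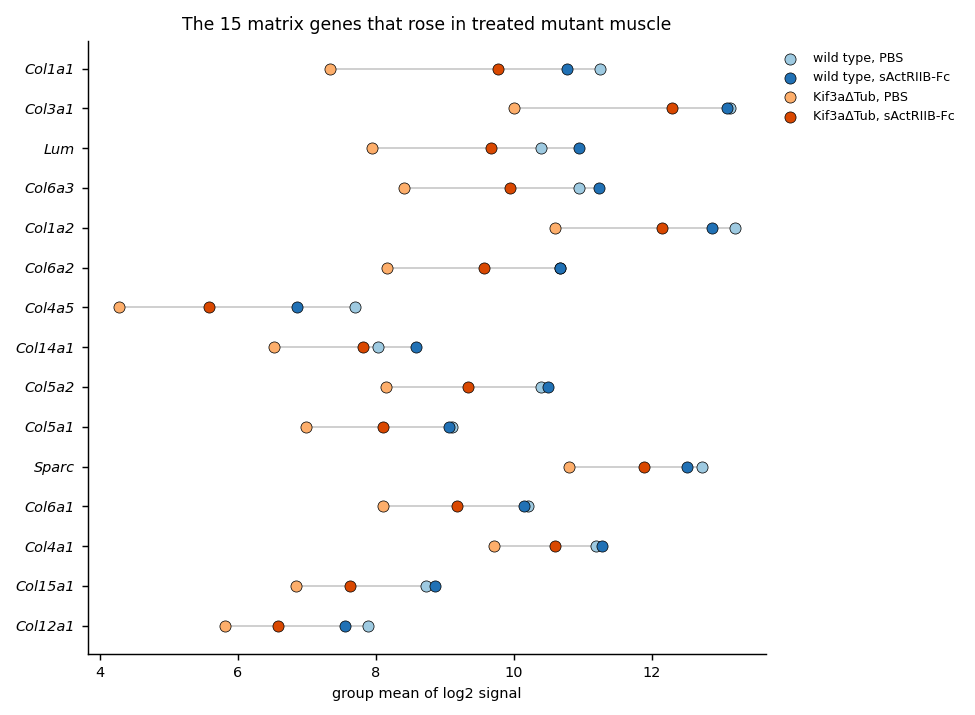
Group means of log2 signal (horizontal axis) in the 4 muscle groups for the 15 matrix genes that rose in treated mutants, ordered by the size of the rise. In each gene the untreated mutants are lowest, and the treated mutants lie between them and untreated wild type; Col1a1 goes from 7.33 to 9.77.

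Tendon and tenocyte genes showed the same direction in 6 of 15 members, beside 4.18% of all genes called higher, with 0 lower and a median of 0.34; with the 18S covariate 3 rose. Kera, keratocan, a proteoglycan of tendon and cornea, was at 6.55, 7.08, 7.26 and 6.84 in treated against 4.27, 5.75, 4.56 and 4.81 in untreated mutants. The groups did not overlap, by the rule that chose the largest rises, and the rise was 2.09 ± 0.25 (4.25-fold, adjusted p = 0.000412). Tnmd, tenomodulin, a membrane protein of tendon cells, was at 8.25, 8.75, 8.20 and 8.88 against 5.87, 7.11, 6.70 and 6.95 (1.86 ± 0.24, adjusted p = 0.000799), also without overlap. Col11a1, a minor fibril chain, rose by 1.55 ± 0.15 (adjusted p = 0.000107), Wif1, a secreted Wnt inhibitor, by 1.35 ± 0.26, Chad by 1.13 and Ecrg4 by 1.09. The tendon transcription factors Scx (-0.22 ± 0.18) and Mkx (0.08 ± 0.19) were not called, and Mkx was near the bottom of the scale in both groups. Untreated wild-type muscle had Kera at 9.26 to 9.49 and Tnmd at 10.43 to 10.67, above treated mutants (2.47 and 2.02 lower, adjusted p = 0.000206 and 0.00122). How much tendon each sample held was not tested.

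The promoters of Col1a2 and Col3a1 are shown because both genes are among the strongest matrix rises and hold a SMAD3-type motif. This motif, in capitals, is CAGACA or its reverse complement TGTCTG. Both stretches are the 250 bases before the RefSeq start on the plus strand of GRCm38.p6, chr6:4505368-4505617 for Col1a2 and chr1:45311288-45311537 for Col3a1.
Col1a2: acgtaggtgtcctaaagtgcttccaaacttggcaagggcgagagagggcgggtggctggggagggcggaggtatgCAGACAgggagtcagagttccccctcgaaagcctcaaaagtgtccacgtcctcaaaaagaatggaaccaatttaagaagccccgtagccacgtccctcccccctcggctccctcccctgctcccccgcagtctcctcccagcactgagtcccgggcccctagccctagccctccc
Col3a1: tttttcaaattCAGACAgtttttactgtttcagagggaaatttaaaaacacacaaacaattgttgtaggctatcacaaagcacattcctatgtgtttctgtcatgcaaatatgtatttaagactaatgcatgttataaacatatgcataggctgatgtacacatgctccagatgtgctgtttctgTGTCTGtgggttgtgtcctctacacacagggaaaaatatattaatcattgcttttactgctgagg
The motif is short and common: it was in 20.5% of measured genes with a promoter entry, in 22.0% of those called higher and in 22.8% of those called lower. It was in 4 of the 10 matrix rises that had an entry. The promoter of Col1a1 is not shown.

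The other large rises came from several kinds of genes, and treated and untreated arrays were apart in each, since this was part of how they were chosen. AW551984 had the largest rise among the genes chosen in this way, from 4.34, 4.05, 4.32 and 4.85 to 6.51, 8.49, 5.84 and 7.75 (2.76 ± 0.58, adjusted p = 0.0122). Its treated arrays were widely spread, and the mean of its probe sets gave 1.00. Retnla, a resistin-like protein of adipose tissue and macrophages, was at 9.31, 8.94, 9.36 and 9.32 against 6.21, 8.37, 7.23 and 6.00 (2.28 ± 0.36, adjusted p = 0.00235). Here the untreated arrays were the uneven ones. Aplnr, the receptor of the myokine apelin, rose by 2.20 ± 0.35 (adjusted p = 0.00235), or 1.31 as the mean of its probe sets.

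Gamt, the enzyme that completes creatine synthesis, was at 8.06, 9.03, 8.42 and 8.52 against 5.27, 7.66, 6.37 and 6.66 (2.02 ± 0.34, adjusted p = 0.00332). Tceal7 was at 12.68, 12.21, 11.60 and 11.88 against 8.72, 10.53, 9.53 and 10.88 (2.18 ± 0.39, adjusted p = 0.00504). Both genes varied more among untreated than among treated animals, with replicate 1 lowest. BC048679 rose by 2.18 ± 0.31, Alas2, the erythroid enzyme that starts haem synthesis, by 1.99 ± 0.29, and Cd28, a co-stimulatory receptor of T cells, by 1.98 ± 0.40 (adjusted p = 0.00155, 0.0018 and 0.0103). Of the 5 measured erythroid genes Alas2 and the transferrin receptor Tfrc rose and 0 fell, beside 4.18% and 2.15% of all genes. In wild-type muscle the same genes had changes between -0.44 (Aplnr) and 1.19 (AW551984), none of them called.

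**Figure D4:**
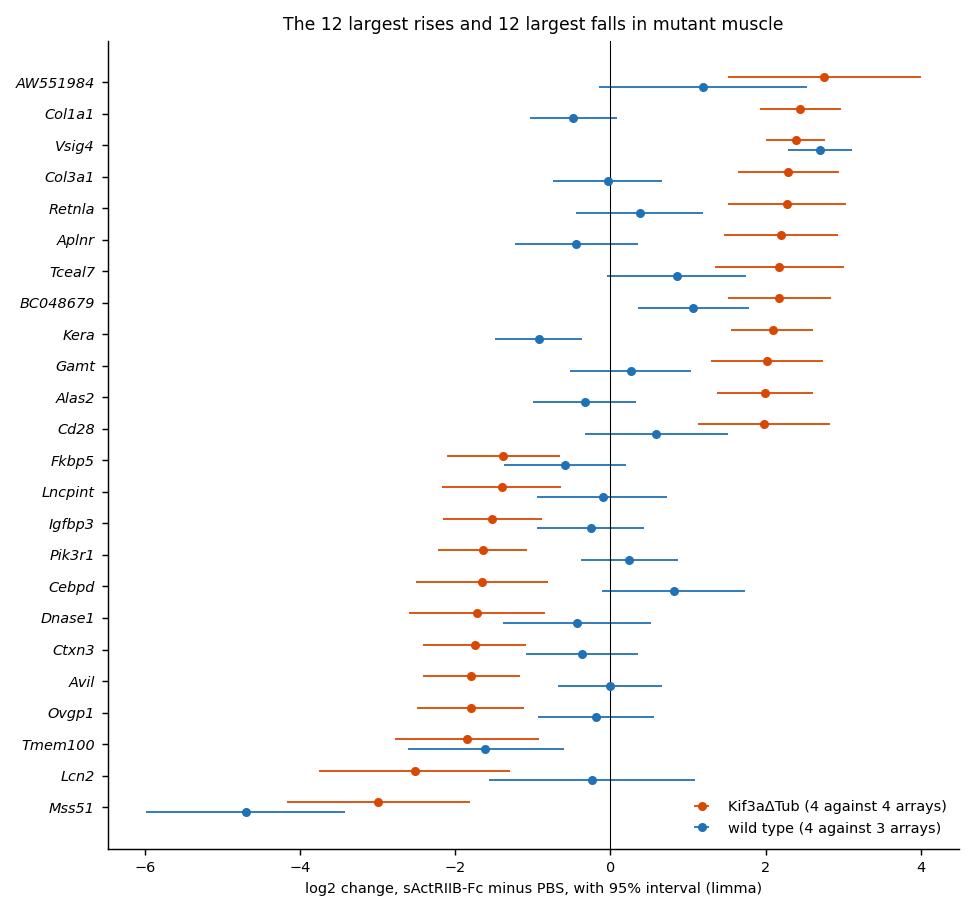
Log2 change with sActRIIB-Fc (horizontal axis, points with 95% intervals from limma) in mutant and in wild-type muscle for the 12 largest rises and 12 largest falls in mutants. Vsig4 and Mss51 move in both genotypes, at 2.39 and 2.70 and at -2.99 and -4.70.

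Lcn2, a secreted siderophore-binding protein of the acute phase, had the second deepest fall among the genes chosen by that rule. It was at 4.63, 4.78, 4.97 and 4.76 in treated and 10.01, 6.29, 6.06 and 6.87 in untreated mutants. Untreated replicate 1 stood far above the rest, and without it the fall was 1.62 in place of 2.52 ± 0.58 (adjusted p = 0.0184). Tmem100, a membrane protein of endothelial cells, fell by 1.85 ± 0.44 (adjusted p = 0.0221); its estimate in wild-type muscle, -1.61, was not called (adjusted p = 0.244). Ctxn3 was at 9.20, 10.52, 10.52 and 9.84 against 12.44, 11.29, 11.64 and 11.73 (1.75 ± 0.31 lower, adjusted p = 0.00495). Avil, an actin-binding protein, and Ovgp1, a secreted glycoprotein, fell by 1.79 ± 0.29 and 1.80 ± 0.32 (adjusted p = 0.00284 and 0.00517). Dnase1 fell by 1.72 ± 0.41 and the long non-coding RNA Lncpint by 1.40 ± 0.36 (adjusted p = 0.0236 and 0.0323). Lcn2, Tmem100, Dnase1 and Lncpint were not called with the 18S covariate, with the actin covariate or in the fit of the 8 arrays alone. Lncpint lost its call in 10 of 18 alternatives, Dnase1 in 8 of 18 and Tmem100 in 6 of 19. Ctxn3, Avil and Ovgp1 were not called with the 18S covariate.

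Of 20 measured genes known to be induced by glucocorticoids 4 fell and 0 rose (2.15% of all genes were called lower), 16 had estimates below 0, and the median was -0.52. Cebpd, a transcription factor of the acute response, was at 9.50, 8.52, 9.37 and 9.98 in treated and at 11.97, 10.31, 10.75 and 10.96 in untreated mutants. The groups did not overlap, by the rule that chose the largest falls (1.66 ± 0.40 lower, adjusted p = 0.0246). Fkbp5, a co-chaperone that acts on the glucocorticoid receptor, was at 9.62, 10.05, 10.03 and 9.67 against 11.72, 10.71, 11.29 and 11.16 (1.38 ± 0.34 lower, adjusted p = 0.0264), and Glul, glutamine synthetase, fell by 0.96 ± 0.25 (adjusted p = 0.0359). The treated arrays were again below all untreated ones in both.

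Klf15 (-0.62 ± 0.24, adjusted p = 0.144), Klf9 (-0.43 ± 0.14, adjusted p = 0.0767), Per1 (-0.53 ± 0.34) and the metallothionein Mt2 (-1.12 ± 0.68, adjusted p = 0.381) were not called. In wild-type muscle the median of the list was 0.35, with 0 called by limma (0.0619% of all genes). There 3 had an unadjusted p under 0.05, beside 2068 of all 17782 genes. The difference between genotypes was called for 0 of the 20 (0.169% of all genes). For that difference 11 had an unadjusted p under 0.05 in limma, beside 2599 of all 17782 genes. With the 18S covariate 0 of the 20 were called, with a median of -0.20. With 1 mutant array left out between 1 (without PBS replicate 4) and 5 (without PBS replicate 2) fell. Untreated mutants were above untreated wild type in 15 of the 20 (6.93% of all genes called higher), a comparison that uses the same untreated mutant arrays.

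Of 20 measured atrophy ubiquitin ligases and FoxO genes 3 fell, beside 2.15% of all genes called lower, 0 rose and 17 had estimates below 0, with a median of -0.29. With 1 array left out between 1 and 6 fell, 1 without PBS replicate 1, PBS replicate 3 or treated replicate 3 or 4 and 6 without PBS replicate 2, and 1 fell in the fit of the 8 arrays alone. Fbxo31, an F-box protein, was at 9.43, 9.59, 9.94 and 9.85 in treated and 11.65, 10.40, 10.75 and 10.93 in untreated mutants (1.23 ± 0.20 lower, adjusted p = 0.00299), without overlap. The transcription factors Foxo1 (0.93 ± 0.25 lower, adjusted p = 0.0393) and Foxo3 (0.78 ± 0.19 lower, adjusted p = 0.0266) fell as well, Foxo1 with overlapping groups. Fbxo32 was at 10.53, 9.26, 10.13 and 10.30 against 13.50, 10.20, 10.94 and 11.62 (-1.51 ± 0.50, 95% interval -2.57 to -0.45, adjusted p = 0.085). Its groups overlapped, and untreated replicate 1 was by far the highest; without single arrays the estimate ran from -1.97 to -0.87.

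Trim63 was at 11.92, 11.32, 11.17 and 11.48 against 13.09, 11.61, 11.52 and 11.86 (-0.55 ± 0.27, 95% interval -1.11 to 0.02, adjusted p = 0.253), with the same untreated array on top. Fbxo30, a ligase of the BMP and SMAD4 branch, was level (0.08 ± 0.12, adjusted p = 0.773). The proteasome and autophagy counts below stand beside 4.18% of all genes called higher and 2.15% called lower. Among 31 proteasome subunits 1 fell, Psmd2 (0.52 ± 0.12; 0.19 and not called as the mean of its probe sets), and 0 rose, with a median of 0.0049. Of 24 autophagy and mitophagy genes Fundc1, Atg5 and Atg12 rose by 0.41 to 0.70 and Gabarap fell by 0.41; 0 of the 24 were called with either covariate or in the fit of the 8 arrays alone. With the 18S covariate none of the 20 atrophy genes was called, and their median was then -0.25. Without it 10 of them had an unadjusted p under 0.05 in limma, beside 3844 of all 17782 genes.

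**Figure D5:**
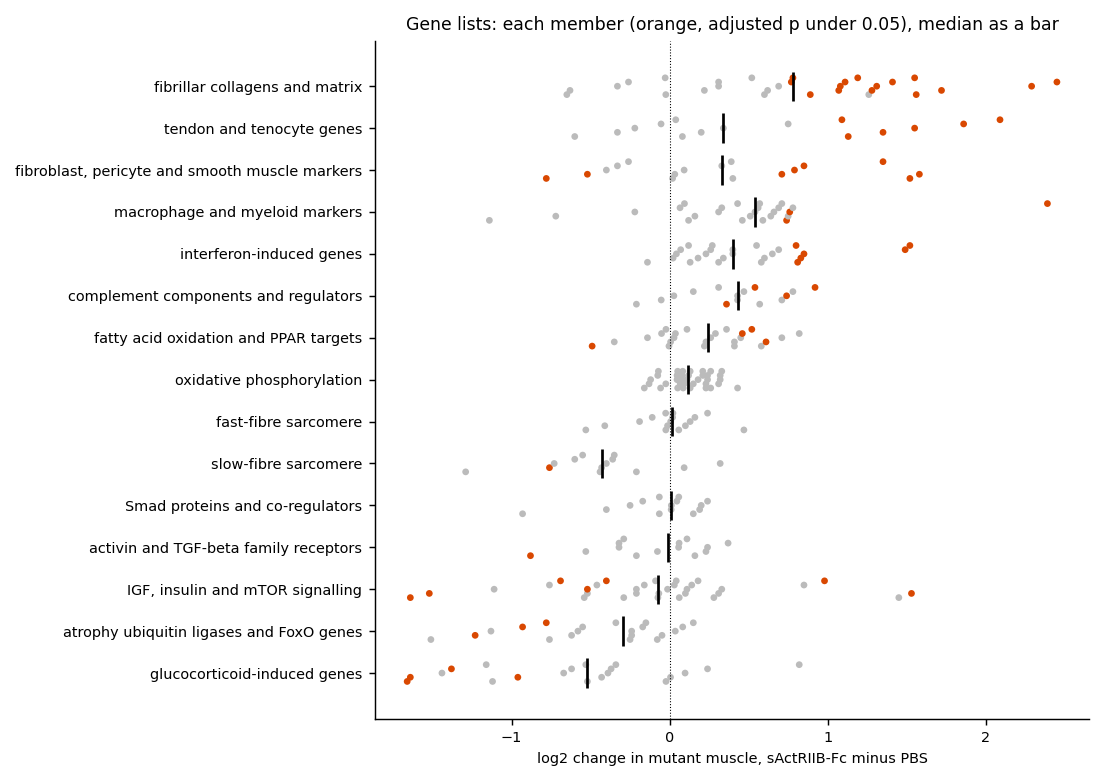
Log2 change in mutant muscle with sActRIIB-Fc (horizontal axis) for each measured member of 15 gene lists; orange points passed an adjusted p of 0.05, grey points did not, and black bars are list medians. Matrix genes have a median of 0.78 and glucocorticoid-induced genes one of -0.52, while fast-fibre genes sit near 0.

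Within insulin-like growth factor, insulin and mTOR signalling 2 of 32 members rose and 5 fell, beside 4.18% and 2.15% of all genes, with a median of -0.07. With 1 array left out 2 to 4 rose and 3 to 9 fell, the highest numbers without PBS replicate 2. Igf1, the growth factor itself, was at 10.13, 10.19, 9.76 and 9.69 in treated and at 7.60, 8.99, 8.39 and 8.68 in untreated mutants (1.53 ± 0.23, 2.89-fold, adjusted p = 0.00189). Irs1, the adaptor of the insulin and IGF1 receptors, was at 12.29, 11.95, 11.75 and 11.80 against 10.40, 11.52, 11.18 and 10.78 (0.98 ± 0.21, adjusted p = 0.0133). In both genes every treated array was above every untreated one.

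Pik3r1, the regulatory subunit of phosphoinositide 3-kinase and also a member of the glucocorticoid list, was at 9.34, 10.19, 9.43 and 8.87 against 11.66, 10.24, 11.40 and 11.09. Replicate 2 of each group nearly met, and the fall was 1.64 ± 0.27 (3.12-fold, adjusted p = 0.00304). Igfbp3, a circulating carrier of IGF1 and a SMAD target, was at 7.72, 8.12, 7.76 and 8.01 against 10.36, 8.44, 9.21 and 9.70 (1.52 ± 0.30 lower, adjusted p = 0.00916). Its groups did not overlap, by the rule that chose the largest falls. The receptor Igf1r fell by 0.52, and Tsc1 and Tsc2, the subunits of the complex that restrains mTORC1, fell by 0.69 and 0.40. With the 18S covariate 0 of the 32 were called and with the actin covariate 1 rose and 1 fell; Igf1 itself was then at 1.30 (adjusted p = 0.115) and 1.32 (adjusted p = 0.0168).

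Of the activin pathway's own genes limma called 1 of 15 ligands, 1 of 14 receptors and 2 of 15 extracellular inhibitors, beside 6.33% of all genes. In these lists 5, 5 and 4 members had an unadjusted p under 0.05 in limma, beside 3844 of all 17782 genes. Among 15 measured ligands Gdf10, a BMP3-like ligand, rose (0.73 ± 0.19, adjusted p = 0.0362) and none fell. The Gdf10 call was lost in 10 of 19 alternatives, both covariates among them. Inhba, the activin A subunit, was at 6.37, 6.15, 6.38 and 6.15 against 6.22, 6.38, 6.09 and 6.07 (0.07 ± 0.10, adjusted p = 0.75), and Inhbb gave -0.05 ± 0.11. Both overlapped fully, and Inhba lay below the median gene level of 6.47.

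Of 14 receptors Acvr1b, the type I activin receptor ALK4, fell. It was at 9.12, 9.86, 9.72 and 9.61 against 10.81, 10.03, 10.43 and 10.54 (0.88 ± 0.17 lower, adjusted p = 0.00935), without overlap. With the 18S and the actin covariate Acvr1b was at -0.61 and -0.78 and not called (adjusted p = 0.376 and 0.0655 in limma). Acvr2b, whose ligand-binding part the trap carries, was at -0.53 ± 0.16 (adjusted p = 0.0594), Acvr2a at 0.37 ± 0.16 (adjusted p = 0.181) and Tgfbr1 at -0.32 ± 0.14 (adjusted p = 0.188), none of them called. Among 15 extracellular inhibitors Fstl1, a follistatin-like glycoprotein, was at 10.22, 10.42, 9.96 and 9.98 against 8.24, 8.74, 9.29 and 9.51 (1.20 ± 0.23 higher, no overlap, adjusted p = 0.00883). With the 18S and the actin covariate Fstl1 was at 1.47 and 1.07 and not called (adjusted p = 0.0697 and 0.0623 in limma). Twsg1 rose by 0.40 ± 0.11 (adjusted p = 0.043, not called as the mean of its probe sets); Fst (-0.29 ± 0.19) and Fstl3 (-0.01 ± 0.15) did not pass.

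Counts in this paragraph stand beside 6.33% of all genes called and 3844 of 17782 with an unadjusted p under 0.05 in limma. Limma called 0 of the 14 Smad proteins and co-regulators, and 2 had an unadjusted p under 0.05. Smad2 was at 0.19 ± 0.10, Smad3 at -0.07 ± 0.22, Smad4 at -0.40 ± 0.14 and Smad7 at -0.25 ± 0.20. Of 18 known SMAD2/3 targets the collagen genes Col1a1, Col1a2 and Col3a1 rose and Igfbp3 fell, so that their direction was mixed, with a median of -0.04. Limma called 0 of 12 BMP targets, with 2 at an unadjusted p under 0.05; Id1 was at -0.11 ± 0.26, Id2 at 0.50 ± 0.22 and Id3 at -0.21 ± 0.19.

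Contractile, calcium and denervation counts stand beside 6.33% of all genes called and 3844 of 17782 with an unadjusted p under 0.05 in limma. Of 16 fast-fibre genes limma called 0, with 4 at an unadjusted p under 0.05, and the median was 0.01. Acta1 and creatine kinase Ckm changed by less than 0.02. Of 13 slow-fibre genes 11 had estimates below 0, with a median of -0.43, and Myoz2, a Z-disc protein of slow fibres, fell (11.60, 11.40, 11.59 and 11.66 against 12.45, 11.89, 12.28 and 12.65; 0.76 ± 0.16 lower, adjusted p = 0.0114). The median was -0.08 with the 18S and -0.18 with the actin covariate, with 0 called in both; Myoz2 was then at -0.36 (adjusted p = 0.515) and -0.64 (adjusted p = 0.0782). Without PBS replicate 2 limma called 3 of the 13 lower. Slow myosin Myh7 was at -0.73 ± 0.34 (adjusted p = 0.221), with overlapping groups. Of 23 genes of calcium handling Jph2, a junctional membrane protein, and Asph rose by 0.67 and 0.44 (Asph not called as the mean of its probe sets), and the calcium channel subunit Cacng1 fell by 0.48. Of 18 denervation-responsive genes the transcriptional regulator Dach2 rose by 1.32 ± 0.33 and Musk, the kinase of the neuromuscular junction, fell by 0.56 ± 0.14.

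Limma called 0 of 36 oxidative phosphorylation genes, with 12 at an unadjusted p under 0.05, 29 estimates above 0 and a median of 0.11. Over all genes limma called 6.33%, and 3844 of 17782 had an unadjusted p under 0.05, with a median change of 0.03. Among 24 genes of fatty acid oxidation 3 rose and 1 fell, beside 4.18% and 2.15% of all genes. Decr1 (0.61 ± 0.12), Fabp3 (0.52 ± 0.11) and Hadh (0.46 ± 0.10), which handle fatty acids, rose, and the receptor Ppard fell by 0.49 ± 0.14. As the mean of its probe sets Ppard was at -0.19 and not called, nor was Hadh (0.39). Of the 24, 0 were called with the 18S covariate or in the fit of the 8 arrays alone, and 5 rose without PBS replicate 2. Among 19 genes of mitochondrial biogenesis and dynamics the coactivator Ppargc1a fell by 0.66 ± 0.14 (adjusted p = 0.0124) and the fusion protein Mfn2 by 0.50 ± 0.11 (adjusted p = 0.0136), beside Mss51; 0 were called with the 18S covariate, and without PBS replicate 2 there were 3 rises and 6 falls. Among 25 glycolysis and glycogen genes limma called Pgk1 (0.34 higher). Gpx3, a secreted glutathione peroxidase, fell by 1.00 ± 0.21 and Got1, a transaminase, by 0.51 ± 0.11.

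Of 25 interferon-induced genes 6 rose, beside 4.18% of all genes called higher, and 0 fell, 24 had estimates above 0, and the median was 0.40. The chemokine Cxcl9 rose by 1.49 ± 0.27 (adjusted p = 0.00504), the GTPase Iigp1 by 1.52 ± 0.42 (adjusted p = 0.0421) and Ifit1 by 0.85 ± 0.13 (adjusted p = 0.00189), with Gbp3, Usp18 and Rsad2 between 0.80 and 0.83. In 13 of the 25 both group means were below the median gene level, and 0 were called with the 18S covariate. With 1 array left out between 3 (without treated replicate 2) and 11 (without PBS replicate 2) rose. Cxcl9 was at 0.91, still called, as the mean of its probe sets.

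Macrophage markers had 3 rises among 25, beside 4.18% of all genes called higher, with 0 falls and a median of 0.54 (0.78 in wild-type muscle). The 3 rises were Vsig4, the macrophage receptor gene Adgre1 (0.76 ± 0.21) and C1qa (0.74 ± 0.21). The count rested on single arrays: 12 rose without PBS replicate 4, 1 rose and 2 fell without PBS replicate 2, 2 rose without PBS replicate 3, and 1 rose without PBS replicate 1 or any treated array. The mean signal of the list ran from 7.23 to 7.68 in treated and from 6.50 to 7.63 in untreated mutants, so the groups overlapped. The defining markers Cd68 (-0.72 ± 0.32), Csf1r (0.56 ± 0.18), Cd163 (0.57 ± 0.19) and Mrc1 (0.75 ± 0.26) were not called. H2-Aa and H2-Ab1, chains of the class II molecules that present antigen, rose by 1.34 ± 0.31 and 0.87 ± 0.25. They were 2 of 10 measured members, beside 4.18% of all genes, and H2-Ab1 was not called as the mean of its probe sets. Of 15 complement genes 4 rose (Cfp, C1qa, C1ra and Cd59a), beside 4.18% of all genes; Cfp was at 0.12 and not called as the mean of its probe sets. With either covariate, or without PBS replicate 1 or treated replicate 2, 3 or 4, 1 complement gene rose; 2 rose without PBS replicate 2 or 3, and 5 without PBS replicate 4. Among 25 cytokine and acute phase genes 4 fell, beside 2.15% of all genes called lower. They were Lcn2, the interleukin 6 receptor chain Il6ra (1.48 ± 0.38), the oncostatin M receptor Osmr (0.89 ± 0.20) and Stat3 (0.75). Relb rose by 0.77 ± 0.19. As the mean of their probe sets Osmr was at -0.37 and not called and Il6ra at -0.94 and called. With either covariate, or in the fit of the 8 arrays alone, 0 of the 25 were called; with 1 array left out 1 to 4 fell, 1 without PBS replicate 1. The neutrophil gene S100a8 fell by 1.68 ± 0.47 with overlapping groups (adjusted p = 0.0464).

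Each remaining list had at most 4 calls, to be read beside 4.18% of all genes called higher and 2.15% called lower. In the Wnt pathway Sfrp2 (1.62 ± 0.27), Wif1 and Wnt5a (1.14 ± 0.31) rose and the receptor Fzd4 fell (0.79 ± 0.15), as 4 of 22. Of 22 Atf4 and stress response targets Mthfd2 rose by 1.70 ± 0.48 (1.37 and not called as the mean of its probe sets), and Chac1 and Slc3a2 fell by 1.64 ± 0.39 and 0.68 ± 0.15, with Atf4 level (-0.03 ± 0.14). Heat shock proteins Hspa4l and Dnaja1 rose by 0.76 and 0.70 (Dnaja1 not called as the mean of its probe sets), and the immediate-early gene Ier3 fell by 1.05 ± 0.25. The circadian repressor Cry2 fell by 0.90 ± 0.25 as 1 of 18 clock genes, and the perilipin Plin4 by 0.85 ± 0.18 as 1 of 15 adipocyte genes. Endothelial genes went both ways, with Aplnr higher and Plvap (0.77 ± 0.16) and the receptor Flt1 (0.52 ± 0.12) lower among 20. Limma called 0 of 19 chaperones of the endoplasmic reticulum, 0 of 21 scaffold and Z-disc genes and 0 of 11 Schwann cell genes. In these lists 3, 5 and 0 had an unadjusted p under 0.05, beside 3844 of all 17782 genes.

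The trap called 11 genes in wild-type muscle (0.0619% of those tested), where 2068 had an unadjusted p under 0.05, against 3844 in mutants. Beside the 5 shared with mutants these were Gadd45a (1.00) and Acer2 (1.26), which were higher, and Slc30a2 (-1.96), Junos (-1.17), Ccdc3 (-0.87) and H1f8 (-0.77), which were lower. All 6 were chosen after their values were seen. In mutants none of the 6 was called, with changes from -0.49 (Junos) to 0.60 (Acer2). Of the 1125 genes called in mutants, 738 had the same sign in wild type. The share with the same sign over all genes is not given here, so this count does not show agreement between genotypes.

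The test of the difference itself called 30 genes (0.169%), 27 with a higher (more positive) trap change in mutants than in wild type and 3 with a lower one. This balance moved with the processing: it was 282 higher and 287 lower without mutant PBS replicate 2, 193 and 170 with array weights, and 35 and 10 after centring each array. Of the 30, 29 were called in mutants, and the exception was H1f8. The difference contains the mutant trap change and uses the same mutant arrays, so this overlap is not independent of the mutant calls. The largest terms were in Kera (3.01, adjusted p = 0.00215), Col1a1, Tnmd (2.56, adjusted p = 0.00465), Wif1 (2.41, adjusted p = 0.0129) and Alas2 (2.32, adjusted p = 0.0425). In each of these the trap change was above 1.3 in mutants and below 0 in wild type, as for Wif1, at 5.34, 6.16, 5.62 and 6.26 against 4.35, 5.02, 4.61 and 4.01 in mutants. The negative terms were Ctps2, a CTP synthase (-1.56, adjusted p = 0.0285), Ahnak, a large scaffold protein (-1.04, adjusted p = 0.0408), and Ptp4a3, a phosphatase (-0.90, adjusted p = 0.0499).

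Ptp4a3 was at 12.25, 11.86, 11.87 and 11.99 in treated and 13.02, 12.67, 12.98 and 12.90 in untreated mutants, a tight and separate pair of groups (0.90 ± 0.12 lower, adjusted p = 0.00079). In wild-type muscle it did not move. The 3 genes were also lower with the trap in mutants, but the mean of the Ahnak probe sets gave 0.41 higher in place of 0.53 lower, and that of Ctps2 0.58 lower in place of 1.20.

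In kidneys of the same mutants 566 genes were called with the trap (3.18%), of which 55 were also called in mutant muscle. The difference between the tissues, from a fit of the 30 arrays that treated each animal as a random block, was called for 936 genes (5.26%), and for 449 of the 1125. It uses the same mutant muscle arrays, so the 449 are not independent of the muscle calls. Among the 449, the largest positive differences were in AW551984 (2.58, adjusted p = 0.0132), Nrep, a neuronal regeneration-related protein (2.44), and Col1a1 (2.35). The largest negative differences were in Dnase1 (-4.06), which rose by 2.34 in kidney, Mss51 (-3.16), and Akr1c14, an aldo-keto reductase (-2.33), which rose in both tissues, by 0.76 in muscle and by 3.10 in kidney. Vsig4 and Retnla rose by like amounts in both tissues, at 2.60 and 2.28 in kidney.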

How the data were processed

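RNA of muscle and kidney from 15 mice was hybridised to 30 Affymetrix mouse whole-genome arrays. The deposited table holds the authors' normalized log2 signals, 1 column per array. Their range gave the log base; how the arrays were normalized is not stated in the labels. Control probe sets were left out of the tests. Each gene was represented by its brightest probe set (mean of the muscle arrays) among those with 1 symbol in the platform annotation, which left 17782 genes from 35088 probe sets.

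The 15 muscle arrays were fitted in limma 3.58.1 (R 4.3.3) as 4 group means with a shared moderated variance (11 residual and 4.89 prior degrees of freedom), with Benjamini-Hochberg adjustment and calls at 0.05. The tissue difference came from a fit of the 30 arrays in which animals were random blocks (correlation 0.0749). The fit was tested on simulated data. No 2 arrays were duplicates (highest correlation 0.996). The number of arrays limits the precision.

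Members and gene lists were chosen with earlier results of these data known. Genes were named by rule: the 12 largest rises and falls without overlap, at most 3 called members per list and direction, a fixed set of pathway genes, and the 5 largest genotype and 3 largest tissue differences in each direction. The largest rises and falls also had a higher group mean at or above the median gene level, and the same sign as the mean of all probe sets. Other list members named as examples, and genes called in wild-type muscle, were chosen after their values were seen. Promoters are RefSeq's, build GRCm38.p6, matched by symbol. The alternatives were covariates for 18S, actin and Y-linked signal, array weights, centring, quantile normalization, the probe set rule, a trended variance, a filter on dim genes, the compared arrays alone, a replicate block, a 2-fold minimum and leaving out arrays. Some genes of the ligand family are not analysed here. Tables and plots used Python 3.11.15, pandas 2.3.3 and matplotlib 3.10.9.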

Additional observations from a re-analysis of the deposited data

Results flagged for a closer look

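In 14 of 280 groups of 4 arrays examined for the named genes, 1 array lay far from the other 3 by Dixon's criterion, and chance gives about 1 in 20. Treated replicate 2 was apart in 7 of these genes. It was high for Col3a1 (12.72, others 12.09 to 12.20), Lum (10.05, others 9.50 to 9.58), Sfrp2 (7.40, others 6.72 to 6.82), the antigen-presenting gene H2-Ab1 (8.17, others 6.86 to 7.07) and C1qa (8.62, others 8.04 to 8.13). It was low for Retnla (8.94, others 9.31 to 9.36) and Fzd4 (8.75, others 8.88 to 8.89).

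Untreated replicate 1 was low for Cd28 (3.69, others 5.90 to 6.32) and for Dpt (7.52, others 8.31 to 8.42). Treated replicate 1 was high for Relb (6.80, others 5.92 to 6.06) and low for Serpinf1, the secreted factor PEDF (9.14, others 9.47 to 9.52). Treated replicate 3 was high for BC048679 (8.36, others 7.29 to 7.40) and low for Ak4 (7.40, others 7.81 to 7.88). Treated replicate 4 was low for Tgfbr1 (9.78, the others at 9.99).

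The trap effect differed between the genotypes by limma's interaction term in 15 named genes. The term, mutant minus wild type, was 3.01 for Kera, 2.93 for Col1a1, 2.56 for Tnmd, 2.41 for Wif1, 2.32 for Alas2, 2.05 for Col11a1, 1.89 for Col1a2, 1.71 for Serpinf1, 1.65 for Thy1, 1.36 for Dpt, 1.31 for Sparc and 0.87 for H1f8. It was -1.56 for Ctps2, -1.04 for Ahnak and -0.90 for Ptp4a3. Most of these positive terms belong to genes of collagen matrix, tendon or fibroblasts, but genes were named in part by such lists. The make-up of the other called terms is not described here. The trap effect in mutants differed between muscle and kidney by 2.58 for AW551984, 2.44 for Nrep, 2.35 for Col1a1, -2.33 for Akr1c14, -3.16 for Mss51 and -4.06 for Dnase1.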

How the results depend on the processing

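Against 1125 calls in mutant muscle, 73 were made with the 18S covariate, 236 with the actin covariate, 629 with the Y-linked covariate, 1881 with array weights, 322 from the 8 compared arrays alone and 190 at a 2-fold minimum. With any 1 mutant array left out the count ran from 555 to 2140: 555 without PBS replicate 1, 2140 without PBS replicate 2, and 632, 687 and 597 without treated replicates 2, 3 and 4. The share of calls that were higher with the trap was 66.0%, and 94.5% with the 18S and 78.0% with the actin covariate. The sign of all 1125 genes was kept under each alternative that changed the fit on the same probe sets, (898 of them measured with the filter on dim genes), and of 1121 as the mean of all probe sets, where Ccnd3 (-0.15) and Ahnak (0.41) among the named genes turned.

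In wild-type muscle, 11 calls became 6 with the actin covariate, 6 with the Y-linked covariate, 6 among genes above the median level, 130 with array weights and 29 from the compared arrays alone, and ran from 1 to 31 with an array left out. The genotype difference, 30 calls, became 11 with the 18S covariate, 7 with the Y-linked covariate, 363 with array weights, 51 above the median level, 65 after quantile normalization and 48 with a trended variance. It ran from 12 to 569 with an array left out, 569 without mutant PBS replicate 2, where 282 were higher and 287 lower; array weights gave 193 and 170. The tissue difference, 936 calls, ran from 456 (without PBS replicate 1) to 1224 with an animal left out, with 612 without PBS replicate 4 and 496 without treated replicate 2. The cause of these shifts was not tested.

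Replicate numbers come from the labels and did not pair the arrays: same-numbered deviations correlated at -0.00104, 0.0286, 0.129 and -0.105. With the replicate block, 977 genes were called in mutants (915 of the 1125), 13 in wild type, 54 for the genotype and 767 for the tissue difference. The calls of Col1a1, Col1a2 and Col3a1 held under every alternative run. That of Vsig4 held under each alternative that measured it, since the filter on dim genes left Vsig4 out. The matrix list as a whole went from 15 calls to 12 with either covariate and to 11 from the compared arrays alone. The precision is limited by 4 arrays per group.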

Other observations

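Mutant calls in this section stand beside 4.18% of all genes called higher and 2.15% called lower, and a median change of 0.03. Among gene groups not described above, mitochondrial ribosomal proteins had 23 of 26 estimates above 0 in mutant muscle and a median of 0.13, with Mrps22 (0.47) and Mrpl12 (0.45) called. Cytosolic ribosomal proteins went the other way: 14 of 15 estimates were below 0, the median was -0.15, and Rpl8 fell by 0.42. Cell cycle and mitosis genes had 19 of 25 estimates above 0 and a median of 0.17, and Ccnd3, cyclin D3, was the member called (0.51 higher), a direction that turned with the mean of its probe sets. In lymphocyte markers 12 of 13 estimates were above 0, but 11 of the 13 had both group means below the median gene level. The member called was Ighm, an immunoglobulin heavy chain gene (1.31 higher), which was at 0.15 and not called as the mean of its probe sets and at 0.45 (adjusted p = 0.73 in limma) with the 18S covariate.

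In lipid synthesis Gpam, which starts triglyceride assembly, rose by 0.55 and Hmgcs1 of the cholesterol pathway by 0.47, as 2 of 25; neither was called as the mean of its probe sets (0.43 and 0.29). The channel subunit gene Kcne1l rose by 1.39, and the water channel gene Aqp1 fell by 0.64. In the regeneration list 1 of 20 was called, the satellite cell cadherin Cdh15 (0.50 lower), and Ccng1, a p53 target, rose by 0.62. The tendon list had a median change of -0.64 in wild-type muscle against 0.34 in mutants. The difference was called for 5 of 15 members, beside 0.169% of all genes. In wild type 0 were called by limma (0.0619% of all genes), and 12 had an unadjusted p under 0.05, beside 2068 of all 17782 genes.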
